A study of Mus musculus with 7 samples.

Results

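The circadian clock genes described here are Per1, Per2, Per3, Arntl, Clock, Npas2, Nr1d1, Nr1d2, Dbp and Cry1. They were chosen as the probes whose annotated symbol is one of these 10 names, and each name had 1 probe, so the set holds 10 of the 23574 probes and 10 of 16468 measured symbols. The values come from liver RNA of 7 mice on a chow diet, 3 C3ar1-/- knockouts and 4 wild-type littermate controls, on arrays with 2 colours. C3ar1 encodes the receptor for the complement fragment C3a. Every array set the RNA of 1 mouse against 1 common reference, pooled from the livers of 6 wild-type mice on that diet. Strain background, sex, age and the time of day at which livers were taken are not given in the sources used here. Livers are numbered as in the labels, 1 to 4 for the wild types and 2 to 4 for the knockouts.

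The clock is a loop of transcription factors that runs in most cells, liver cells included. Arntl (also called Bmal1) pairs with Clock, or with its relative Npas2, and the pair binds E-box sequences to drive the Per and Cry genes, Nr1d1, Nr1d2 and Dbp. The PER and CRY proteins then repress that pair, and the REV-ERB receptors encoded by Nr1d1 and Nr1d2 repress Arntl and Npas2 through sites called ROREs. In liver the RNA of Arntl therefore peaks around the change from night to day, and that of Nr1d1, Dbp and the Per genes follows in that order through the day. Dbp is an output factor that binds D-box sequences in genes of metabolism. Feeding, body temperature and glucocorticoids also act on several of these genes.

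Promoter sequences show which of these elements lie next to the start sites. RefSeq sequences (GRCm38.p6) were found for 9 of the 10 genes, all but Per2, in 13 windows, and the 250 bases before a start site were searched on both strands for CACGTG (the E-box), TTATGTAA or TTACGTAA (D-box forms), AGGTCA (the core of the RORE, shared by many nuclear receptors) and TGACGTCA (the cyclic AMP element). Capitals mark every match. Those shown belong to Arntl, Per1, Nr1d1 and Dbp, whose values vary widely, and to Per3, Cry1 and Nr1d2, which hold a match.
Arntl, chr7:113207261-113207510, plus strand: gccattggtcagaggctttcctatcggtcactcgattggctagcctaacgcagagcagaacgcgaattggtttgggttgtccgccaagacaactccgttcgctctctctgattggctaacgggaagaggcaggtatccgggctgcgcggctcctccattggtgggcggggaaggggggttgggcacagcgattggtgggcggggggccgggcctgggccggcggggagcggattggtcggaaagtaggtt
Per1, chr11:69098699-69098948, plus strand: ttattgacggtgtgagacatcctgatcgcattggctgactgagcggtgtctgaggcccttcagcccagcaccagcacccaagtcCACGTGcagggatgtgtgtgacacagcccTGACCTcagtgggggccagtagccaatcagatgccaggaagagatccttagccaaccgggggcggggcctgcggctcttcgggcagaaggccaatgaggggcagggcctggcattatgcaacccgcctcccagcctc
Per3, chr4:151044666-151044915, minus strand: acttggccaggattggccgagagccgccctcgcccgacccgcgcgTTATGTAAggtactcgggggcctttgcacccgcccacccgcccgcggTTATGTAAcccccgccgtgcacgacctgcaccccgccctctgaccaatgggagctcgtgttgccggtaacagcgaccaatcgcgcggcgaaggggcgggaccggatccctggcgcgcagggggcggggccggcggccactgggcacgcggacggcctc
Cry1, chr10:85185055-85185304, minus strand: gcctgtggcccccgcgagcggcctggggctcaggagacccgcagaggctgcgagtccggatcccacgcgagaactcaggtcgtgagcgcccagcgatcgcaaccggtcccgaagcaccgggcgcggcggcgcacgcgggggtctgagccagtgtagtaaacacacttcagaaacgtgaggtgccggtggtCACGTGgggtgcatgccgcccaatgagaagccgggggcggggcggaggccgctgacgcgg
Nr1d1, chr11:98775378-98775627, minus strand: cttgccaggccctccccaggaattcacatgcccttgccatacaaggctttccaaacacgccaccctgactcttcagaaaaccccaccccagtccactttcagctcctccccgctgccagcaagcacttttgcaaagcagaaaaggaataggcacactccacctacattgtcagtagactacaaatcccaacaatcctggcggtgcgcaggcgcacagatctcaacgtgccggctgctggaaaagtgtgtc
Nr1d2, chr14:18239107-18239356, minus strand: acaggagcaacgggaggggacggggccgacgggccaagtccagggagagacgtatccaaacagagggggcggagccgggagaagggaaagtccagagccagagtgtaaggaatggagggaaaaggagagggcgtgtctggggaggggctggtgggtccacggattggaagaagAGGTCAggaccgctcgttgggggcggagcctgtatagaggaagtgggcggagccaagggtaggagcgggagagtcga
Dbp, chr7:45704997-45705246, plus strand: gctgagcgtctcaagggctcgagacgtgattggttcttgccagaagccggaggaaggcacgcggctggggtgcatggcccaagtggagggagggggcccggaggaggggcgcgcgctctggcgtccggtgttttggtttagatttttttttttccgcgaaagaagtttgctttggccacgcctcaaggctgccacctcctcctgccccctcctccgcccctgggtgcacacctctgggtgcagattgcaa

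Per1 and Cry1 each held 1 CACGTG, a string found in 6.02% of the 32851 windows in the RefSeq table. It began 166 bases before the start in Per1 and 60 bases before it in Cry1. Per3 held TTATGTAA at 2 places, 205 and 158 bases before its start, where 0.931% of windows hold any D-box form. AGGTCA was found in 1 window of Per1 and in Nr1d2, and also in 1 of the 3 windows of Clock, against 14.0% of all windows. TGACGTCA, present in 1.55% of windows, was in none of the 13. Arntl, Nr1d1, Dbp and Npas2 had no match in these windows, which says only that those letters are not there. Arntl and Per1 have 2 annotated windows each, and the downstream one of Arntl and the upstream one of Per1 are shown.

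The deposited values are log ratios with no signal level, so whether a probe read above background, and whether markers of liver cells were present, cannot be read from them. From the order of names in the labels, a positive value most likely means that the mouse exceeded the pool, and base 10 was assumed for folds. A direction turned on all arrays alike would turn each sign of a level or difference, and no correlation. Dyes were swapped in the series, and on which arrays is not given here. The values were taken to run the same way on every array, and a direction turned on only some would change the correlations too. Knockout liver 2 had the widest spread over all probes (SD 0.0975, against 0.0466 to 0.0676 on the other arrays). The 1 probe named for C3ar1 lay between -0.0318 and 0.0264 in the wild types and read 0.0042, 0.0337 and 0.0514 in the knockouts. It was not lower in the knockouts (difference 0.0329 ± 0.0233, SE; limma, adjusted p = 0.884), and its place relative to the deletion is unknown here, so it gives no check of the labels and genotypes are named below as labelled. Limma called 1 of 23574 probes between the genotypes at an adjusted p below 0.05, or 0.00424%, and 4.47% lay below an unadjusted p of 0.05. The number of arrays limits the precision, and in whole liver fewer cells of a type and less RNA per cell cannot be told apart.

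Among the activators, Arntl varied most of all 10 genes. Its log ratios were 0.0469, 0.0128, -0.215 and -0.133 in wild-type livers 1 to 4, and -0.197, -0.140 and 0.286 in knockout livers 2 to 4. Knockout liver 4 stood highest and wild-type liver 3 lowest, so the genotypes overlapped, and the span from lowest to highest was 3.17-fold. The means were -0.0720 ± 0.123 (SD, n = 4) in the wild types and -0.0169 ± 0.264 (SD, n = 3) in the knockouts. Their difference, 0.0551 ± 0.120 (SE), lay within the scatter of mice of 1 genotype (limma, adjusted p = 0.929), and without knockout liver 4 it was -0.0964.

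Clock and Npas2, the partners of Arntl, moved little on this array. Clock read 0.0134, 0.0116, -0.0162 and -0.0170 in the wild types and 0.0253, -0.0291 and -0.0219 in the knockouts, a span of 1.13-fold. Npas2 lay between -0.0139 and 0.0362 in the wild types and between -0.0081 and 0.0135 in the knockouts, a span of 1.12-fold. The genotype differences were -0.00652 ± 0.0205 (SE) and -0.00563 ± 0.0186 (SE). Their 95% intervals, not adjusted over probes, ran from -0.0543 to 0.0412 for Clock and from -0.0490 to 0.0377 for Npas2. They hold for the log ratios of these probes, whose signal level is unknown.

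Of the period genes, which encode the repressors of the loop, Per2 spanned the most. It read -0.120, 0.172, 0.105 and 0.146 in wild-type livers 1 to 4 and 0.104, 0.0234 and -0.228 in knockout livers 2 to 4. Wild-type liver 1 and knockout liver 4 were the only livers below the pool, 1 of each genotype, and the full span was 2.51-fold. The difference between knockout and wild type was -0.109 ± 0.0943 (SE; limma, adjusted p = 0.884), and it was -0.0122 without knockout liver 4.

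Per1, which also responds quickly to glucocorticoids and cyclic AMP, had the same low pair. Its values were -0.0167, 0.0905, 0.0358 and 0.0622 in the wild types and 0.156, 0.109 and -0.0770 in the knockouts. Only wild-type liver 1 and knockout liver 4 read below 0, and the difference between genotype means was 0.0197 ± 0.0550 (SE; limma, adjusted p = 0.946).

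Per3 was the only member whose genotypes did not overlap. It read -0.0208, -0.0036, 0.0262 and 0.0158 in wild-type livers 1 to 4 and 0.0543, 0.0385 and 0.107 in knockout livers 2 to 4. All 3 knockouts lay above all 4 wild types, with means of 0.0665 ± 0.0357 (SD, n = 3) and 0.0044 ± 0.0209 (SD, n = 4). The difference was 0.0621 ± 0.0228 (SE), or 1.15-fold with a 95% interval from 1.02 to 1.30, and it did not pass over all probes (limma, unadjusted p = 0.0271, adjusted p = 0.884). Groups that do not overlap made up 5.26% of all probes, 2.71% with the knockouts higher and 2.54% with them lower, beside 1 of the 10 members. Without knockout liver 4 the difference was 0.0420, and over all alternatives it ranged from 0.0420 to 0.0761.

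Cry1, the partner of the PER proteins, lay between -0.0205 and 0.0254 in the wild types and between -0.0231 and 0.0302 in the knockouts. Its genotype means differed by less than any other member's, with a 95% interval from -0.0484 to 0.0485. Its span of 1.13-fold was close to that of Clock and Npas2.

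The REV-ERB genes behaved unlike each other. Nr1d1 read -0.0086, -0.0088, -0.0218 and -0.138 in wild-type livers 1 to 4, and -0.119, -0.0945 and 0.204 in knockout livers 2 to 4. Knockout liver 4 was the only liver above the pool, and wild-type liver 4 lay with the other knockouts, well below its own group. The span was 2.20-fold, and the genotype difference was 0.0412 ± 0.0780 (SE; limma, adjusted p = 0.921), or -0.0625 without knockout liver 4. Nr1d2 lay between -0.0195 and 0.0247 in the wild types and read 0.0641, 0.0172 and 0.0020 in the knockouts, a span of 1.21-fold. Its difference was 0.0240 ± 0.0224 (SE; limma, adjusted p = 0.884).

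Dbp, the output factor, read -0.0442, 0.0348, 0.0752 and 0.0835 in wild-type livers 1 to 4 and 0.0674, 0.0140 and -0.0722 in knockout livers 2 to 4. As with Per1 and Per2, wild-type liver 1 and knockout liver 4 were the only livers below the pool. The span was 1.43-fold and the genotype difference -0.0343 ± 0.0420 (SE; limma, adjusted p = 0.892).

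**Figure D1:**
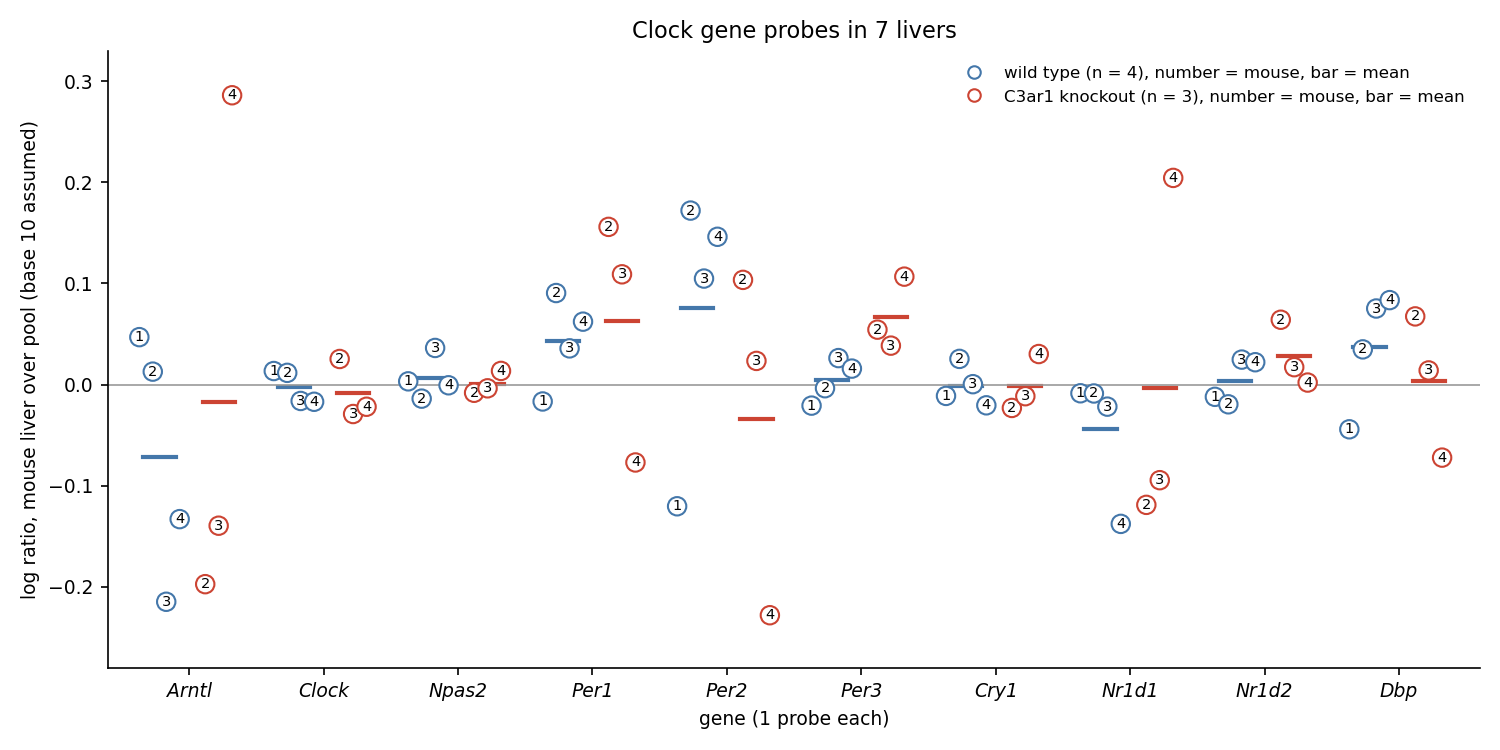
Log ratio over the pool (vertical axis, base 10 assumed) for the 10 clock gene probes, with blue circles for 4 wild-type livers and red circles for 3 knockout livers, the liver's number in each circle and a bar at each group mean. Knockout liver 4 is highest for Arntl (0.286) and Nr1d1 (0.204) and lowest for Per2 (-0.228) and Dbp (-0.0722), while only in Per3 do all knockouts lie above all wild types.

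Between the genotypes, limma thus called 0 of the 10 members, with 6 higher and 4 lower in the knockouts, and 1, Per3, at an unadjusted p below 0.05. Over all probes 57.0% were higher in the knockouts, a share that also stands beside the counts for the lists below. The median difference of the members was 0.00985, beside 0.00555 over all probes, and it was -0.00598 without knockout liver 4. Against the pool, limma called 0 members in either genotype, where it called 0% of all probes for the wild-type mean and 0.0339% for the knockout mean. At an unadjusted p below 0.05 the shares were 2.32% and 17.6% of all probes. Of the members, 0 reached that level in the wild types and 1, Per3, in the knockouts (limma, unadjusted p = 0.00524, adjusted p = 0.248).

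**Figure D2:**
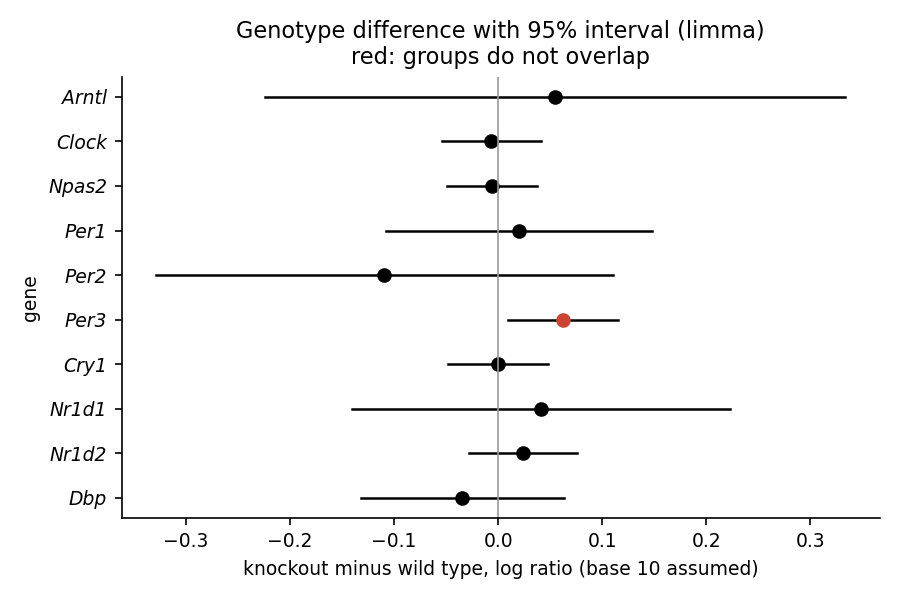
Knockout minus wild type on the log ratio scale (horizontal axis, base 10 assumed) for each clock gene, as a point with its 95% interval from limma, in red where the genotypes do not overlap. Only the interval of Per3, from 0.00916 to 0.115, lies off 0 before adjustment, and the widest interval is that of Arntl, from -0.224 to 0.334.

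The members differed more in how far mice of 1 genotype lay apart than in their genotype means. The within-genotype SD was 0.192 for Arntl, 0.151 for Per2, 0.124 for Nr1d1, 0.0855 for Per1 and 0.0635 for Dbp, at percentiles 99.3, 98.5, 96.8, 90.2 and 79.6 of all probes. The other 5 members had SDs from 0.0180 (Npas2) to 0.0278 (Per3), at percentiles 11.9 to 33.8, below the median over all probes of 0.0360. The median percentile of the 10 members was 56.7, so the set as a whole was not wide. Among the wild types alone, Per2 spanned 1.96-fold and Arntl 1.83-fold. These percentiles are a description, with no test.

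The wide members had large correlations with each other over these livers, in both directions. Arntl and Nr1d1 had a Pearson r of 0.884 over the 7 livers (rho = 0.679), and Per2 and Dbp had an r of 0.929 (rho = 0.786). Arntl ran opposite to Dbp (r = -0.880, rho = -0.714), to Per1 (r = -0.787) and to Per2 (r = -0.781, rho = -0.429). These 5 genes were set apart from the rest after their spread in the same livers was seen. All 10 of their pairs had an absolute r of 0.739 or more. The median was 0.792, against 0.340 over the other 35 pairs, each of which holds a gene of small spread. In each of the 5 genes the same knockout liver held the highest or the lowest value, which by itself raises the absolute r. These medians are therefore a description and no test of whether the genes moved together. Per1, Per2 and Dbp correlated positively with each other, as did Arntl with Nr1d1, and each gene of the first set correlated negatively with each of the second.

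None of the 45 member pairs passed after Benjamini-Hochberg adjustment over the 45 pairs, by Pearson's or by Spearman's coefficient. At an unadjusted p below 0.05 (exact permutation test over all orders of the 7 livers, two-sided) there were 10 pairs by Pearson's r and 5 by Spearman's rho. For Per2 with Dbp p was 0.00615 and its adjusted value 0.138, and for rho they were 0.0480 and 0.432 (exact permutation tests). For Arntl with Dbp p was 0.00952, adjusted 0.143 (rho, 0.0881 and 0.493), and for Arntl with Nr1d1 it was 0.0188, adjusted 0.147 (rho, 0.110 and 0.493; exact permutation tests). Arntl with Per1 gave 0.0319, adjusted 0.176 (rho = -0.607, with 0.167 and 0.577), and Arntl with Per2 gave 0.0351, adjusted 0.176 (rho, 0.354 and 0.723; exact permutation tests). The smallest p was that of Nr1d1 with Cry1 (r = 0.839, p = 0.00278, adjusted 0.125; rho = 0.857, p = 0.0238, adjusted 0.432; exact permutation tests). Of the 45 pairs, 5 had an r of at least 0.8 or at most -0.8, where 5.99% of all 277854951 pairs of probes do. There were 3 at 0.8 or above, against 3.28% of all pairs, and 2 at -0.8 or below, against 2.71%. Among probes that span at least as much as Dbp, 9.16% of pairs do, 5.23% positive and 3.94% negative, and 4 of the 10 pairs of wide members did. These 2 shares are not like for like. The wide members were picked after their spread was seen, Dbp spans the least of them, and all have an extreme value in the same liver.

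**Figure D3:**
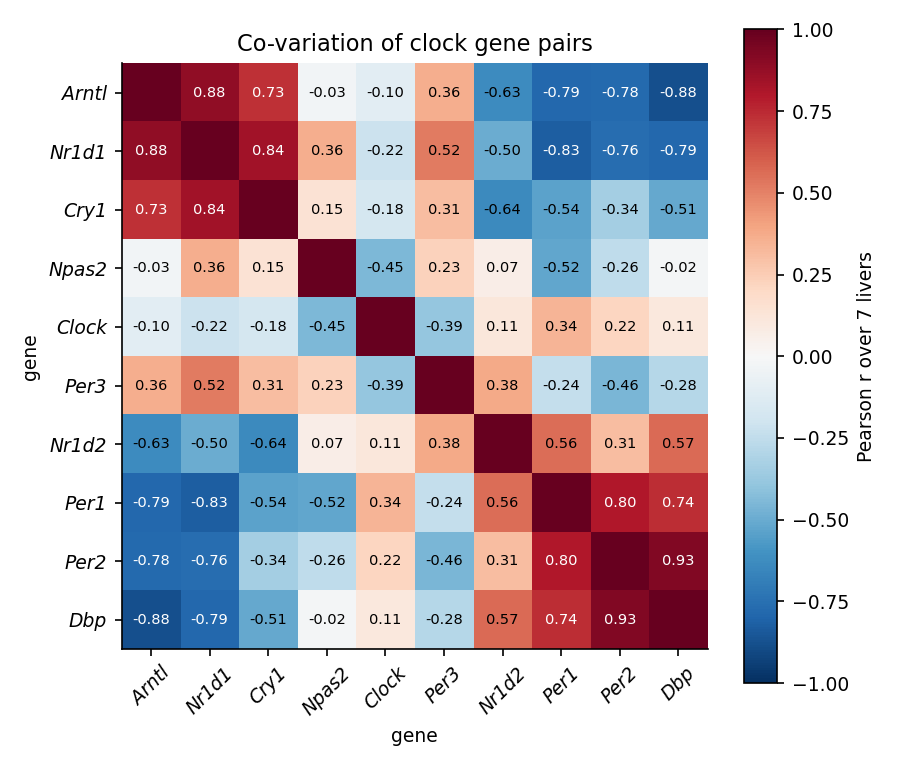
Pearson r over the 7 livers for each pair of clock genes (both axes list the 10 genes; red positive, blue negative). Arntl, Nr1d1 and Cry1 form a red corner (Arntl with Nr1d1, 0.88), Per1, Per2 and Dbp another (Per2 with Dbp, 0.93), and the blocks between Arntl or Nr1d1 and those 3 genes are blue.

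Several of these relations were smaller without the livers at the ends. Leaving out the 2 livers farthest from the median of the first gene, here wild-type liver 1 and knockout liver 4, the r of Arntl with Dbp was -0.486, of Arntl with Nr1d1 0.397 and of Per2 with Dbp 0.473, and that of Per2 with Arntl turned to 0.517. For Per1 with Arntl the livers left out were knockouts 2 and 4 (r = -0.310), and for Nr1d1 with Cry1 they were wild type 4 and knockout 4 (r = 0.698). Without wild-type liver 1 alone, Arntl with Dbp was at -0.901, Arntl with Nr1d1 at 0.895 and Per2 with Dbp at 0.911. Without knockout liver 4 alone they were at -0.763, 0.577 and 0.861. With each single liver left out in turn, all 10 pairs of the wide members kept their sign. Without knockout liver 4 their absolute r lay between 0.302 and 0.861. On deviations from the genotype means, all 10 signs were kept as well, with -0.883 for Arntl with Dbp and 0.924 for Per2 with Dbp. The livers at the low end of Per2 and Dbp, wild-type liver 1 and knockout liver 4, are 1 of each genotype. Across all 23574 probes these 2 arrays were the least alike of any pair (r = -0.250).

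**Figure D4:**
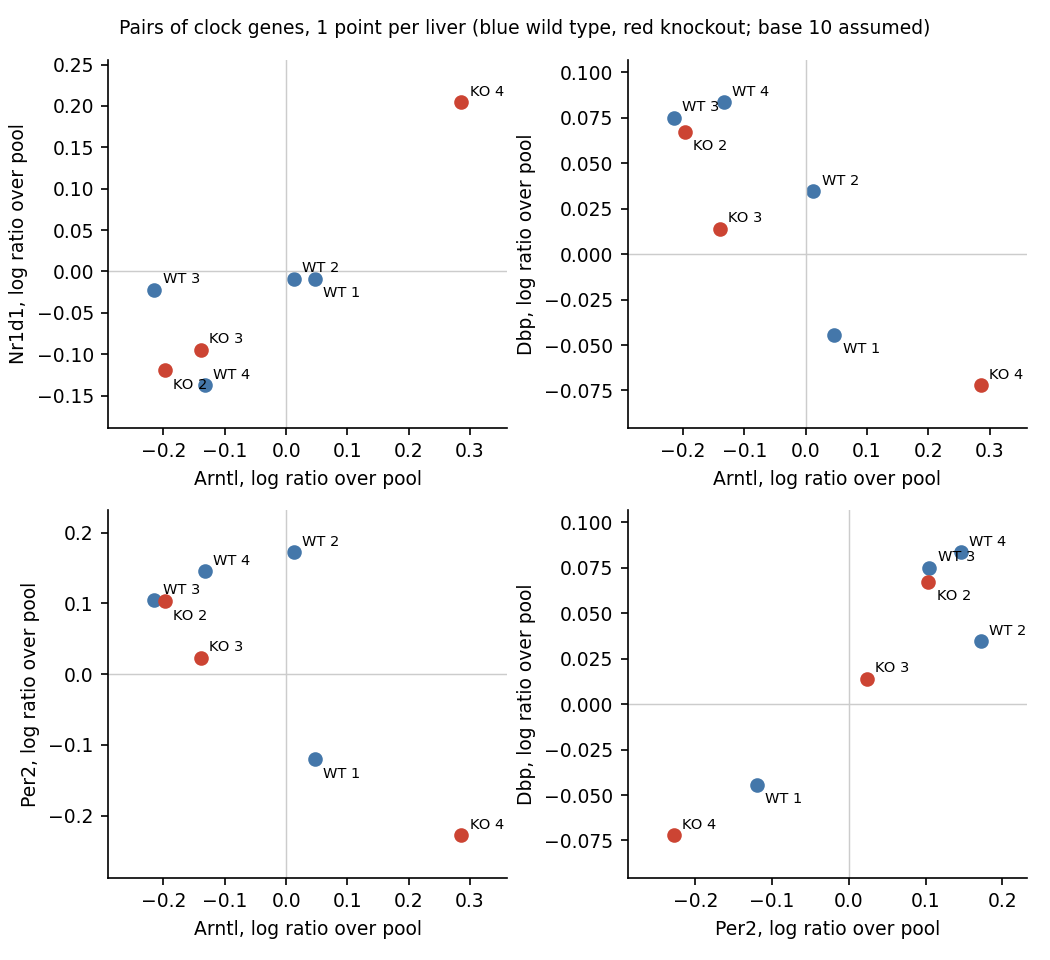
Log ratios over the pool of Arntl against Nr1d1, Dbp and Per2, and of Per2 against Dbp (axes in log ratio, base 10 assumed), with 1 labelled point per liver, blue for wild type and red for knockout. Knockout liver 4 lies at one end of each panel, and wild-type liver 1 lies next to it for Per2 (-0.120) and Dbp (-0.0442).

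The signs of r did not divide by the textbook roles. Between the activators (Arntl, Clock, Npas2) and the set of Per genes, Nr1d1, Nr1d2 and Dbp, 9 of 18 pairs were negative and 9 positive, with a median r of 0.0217. Within the latter set 8 of 15 pairs were positive, and over all pairs of probes 50.8% were. Nr1d1 ran with Arntl, and against Per1 (r = -0.827, rho = -0.714; p = 0.0196, adjusted 0.147, and for rho 0.0881 and 0.493) and Dbp (r = -0.785, rho = -0.821; p = 0.0192, adjusted 0.147, and for rho 0.0341 and 0.432; exact permutation tests). Without the 2 livers farthest in the first gene those r were -0.437 and -0.345. The r of Per3 with Per2 was -0.457 and with Dbp -0.285, and both turned without knockout liver 4, to 0.379 and 0.608.

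To rank other genes by likeness, a clock contrast was formed in each liver as the mean of Per1, Per2, Per3, Nr1d1, Nr1d2 and Dbp minus the mean of Arntl, Clock and Npas2. It was -0.0583, 0.0407, 0.106 and 0.0822 in wild-type livers 1 to 4 and 0.114, 0.0754 and -0.103 in knockout livers 2 to 4. Wild-type liver 1 and knockout liver 4 were the only livers below 0, as the values of Per1, Per2 and Dbp that enter it already were. Each of these members is part of the contrast and enters it unscaled. Its r with the contrast is therefore partly fixed in advance, most so for members of wide spread. That r was -0.952 for Arntl, 0.947 for Dbp, 0.881 for Per2, 0.859 for Per1 and 0.647 for Nr1d2. Other members ran against their own side or apart from it, with Nr1d1 at -0.829, Per3 at -0.223, Clock at 0.0735 and Npas2 at -0.0654. Over all probes, 2.06% had an r of at least 0.8 with it and 2.05% an r of at most -0.8. The following likenesses are descriptions over 7 livers, picked from all probes by size.

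The probes that ran most strongly against the contrast, and so with Arntl, included those of the acute phase genes Saa1 and Saa3. These encode serum amyloid A proteins, which liver makes in inflammation. The Saa1 probe read 0.353, -0.205, -0.261 and -0.225 in wild-type livers 1 to 4 and -0.515, -0.195 and 0.760 in knockout livers 2 to 4, with an r of -0.972 with the contrast. The Saa3 probe had an r of -0.968, and the 2 probes gave nearly the same value in each liver. The serum amyloid A genes are close paralogues, so probes named for them may share signal. The same livers, wild-type 1 and knockout 4, were the only ones above the pool. Ubfd1 (-0.994), Ceacam12 (-0.980), Ddx28 (-0.979), Zfp101 (-0.978), Plxnc1 (-0.968) and Ddx51 (-0.965) completed the 8 lowest r. The part of an acute phase response in the clock values was not tested.

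In the other direction the 8 highest r were those of Tmtc2 (0.982), Apbb2 (0.972), Podxl (0.964), Srm (0.963), Tle1 (0.960), Prr15 (0.956), 4931440J10Rik (0.954) and Acsm5 (0.954). Srm encodes spermidine synthase and Acsm5 a mitochondrial acyl-CoA synthetase. Acsm5 read -0.0455 in wild-type liver 1 and -0.0921 in knockout liver 4, below 0 in these only, and at 0.0224 to 0.101 in the other livers.

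Of the 21 probes of the remaining loop genes, 1 had an r of at least 0.8 with the contrast, that of Rorb (0.810). Another 1, that of Nfil3, had an r of at most -0.8, and the shares over all probes were 2.06% and 2.05%. Rorb lay between 0.0015 and 0.0366 in all livers. Of 21 listed genes, 17 were measured with 21 probes, 9 higher and 8 lower in the knockouts. Limma called 0, and the median difference was 0.00225. Nfil3, which encodes a repressor at the D-box sites that Dbp activates, read 0.0945, -0.170, -0.0146 and -0.0984 in wild-type livers 1 to 4 and -0.127, -0.141 and 0.198 in knockout livers 2 to 4. It was above the pool in wild-type liver 1 and knockout liver 4 only, while Arntl was also slightly above it in wild-type liver 2, with an r of -0.833 with the contrast. Cry2 lay between -0.0078 and 0.0287 and Tef, a relative of Dbp, between -0.0032 and 0.0434, with no such division. Bhlhe41, a further repressor, lay between -0.0767 and 0.0463. The 2 probes of Hlf, the third factor of the Dbp family, differed between the genotypes by 0.0625 and -0.0443, in opposite directions.

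The smallest p among these loop genes was that of Arntl2, a paralogue of Arntl. It read 0.0807, 0.0539, 0.0321 and -0.106 in wild-type livers 1 to 4 and -0.121, -0.141 and -0.164 in knockout livers 2 to 4. The genotypes did not overlap, and the difference of -0.157 ± 0.0433 (SE) did not pass over all probes (limma, unadjusted p = 0.00732, adjusted p = 0.884). Arntl2 was the only probe of the 21 without overlap, against 5.26% of all probes. Arntl2 lies on chromosome 6, as C3ar1 does, and the part of that location in its values was not tested. The casein kinase genes Csnk1e and Csnk1d, whose enzymes phosphorylate PER proteins, differed by 0.0910 and 0.0915 (limma, adjusted p = 0.884 for each), and Fbxw11, which encodes a ubiquitin ligase subunit that acts on PER, by -0.0732.

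Liver genes known to follow the clock varied widely, with a median SD percentile of 96.9 over their probes, below the 98.7 of the feeding and fasting list. Of 24 listed, 20 were measured with 21 probes, 9 higher and 11 lower in the knockouts. Limma called 0, with 2 probes, Slc45a3 (0.170) and Nampt (-0.184), at an unadjusted p below 0.05, and the median difference was -0.00586, or 0.0546 without knockout liver 4. Cyp7a1, the rate-limiting enzyme of bile acid synthesis, and Elovl3, a fatty acid elongase, differed by -0.335 and 0.116 (limma, adjusted p = 0.884 for each). Noct, a rhythmic gene once named for nocturnal expression, read -0.267, 0.226, 0.0599 and 0.129 in wild-type livers 1 to 4 and 0.0576, 0.223 and -0.509 in knockout livers 2 to 4. Usp2, a rhythmic ubiquitin protease gene, read -0.147, 0.159, 0.0487 and 0.112 in the wild types and 0.241, 0.202 and -0.378 in the knockouts. In each of these genes wild-type liver 1 and knockout liver 4 lay below the pool and the other 5 livers above it.

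Wee1, a cell cycle kinase gene driven by the clock in liver, gave the same signs on a smaller scale, from -0.0389 in knockout liver 4 to 0.0653 in wild-type liver 3. Upp2, a uridine phosphorylase gene singled out after its values were seen, read -0.326 in wild-type liver 1 and -0.382 in knockout liver 4, and 0.0014 to 0.239 elsewhere. Gys2, the liver glycogen synthase gene, and Chka, a choline kinase gene, were singled out in the same way. Gys2 read -0.119 and -0.0832 in wild-type liver 1 and knockout liver 4, and Chka read -0.0610 and 0.272. The r with the contrast was 0.863 for Noct, 0.909 for Usp2, 0.890 for Wee1, 0.820 for Upp2, 0.894 for Gys2 and -0.814 for Chka. Without knockout liver 4 these were 0.683, 0.795, 0.762, 0.662, 0.911 and -0.560. Among the 5 livers other than wild-type 1 and knockout 4, Noct and Upp2 turned to -0.901 and -0.869, Usp2 was at -0.0234 and Nfil3 turned to 0.643, so the likenesses of these 4 genes rest on those livers. Gys2 (0.729), Wee1 (0.521) and Chka (-0.612) kept their sign. In all, 5 of 21 output probes had an r of at least 0.8 and 2 an r of at most -0.8, against 2.06% and 2.05% of all probes. Those 2 were Chka and Tars (-0.840), and Tars was not read without wild-type liver 1 and knockout liver 4.

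**Figure D5:**
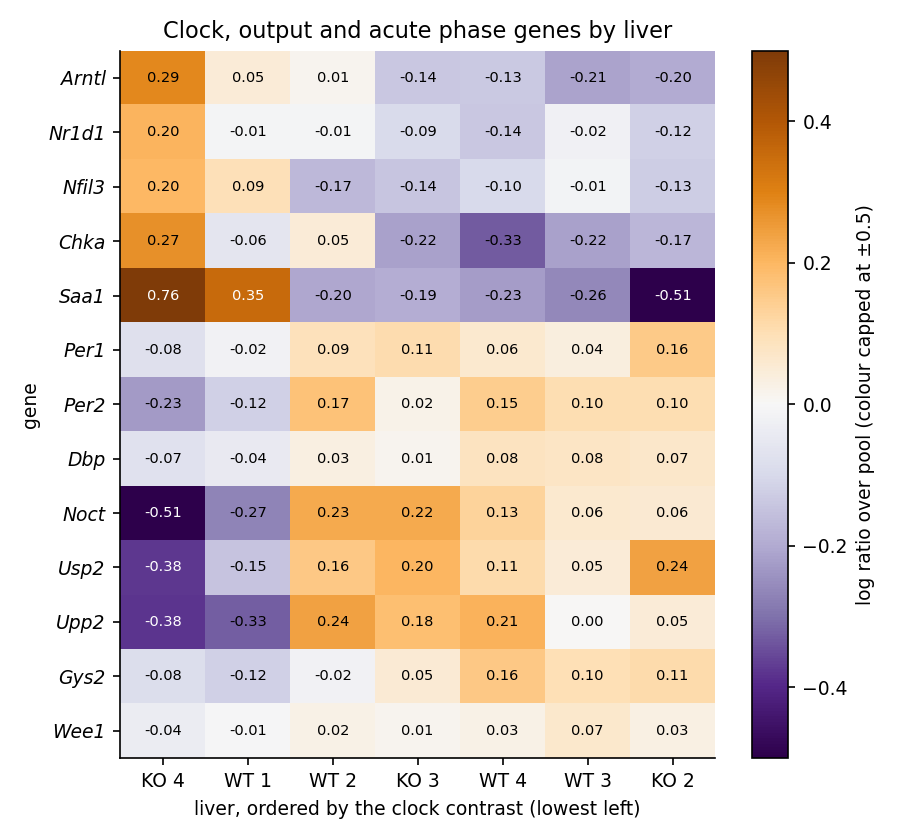
Log ratio over the pool in each liver (columns, ordered by the clock contrast, lowest at left; colour and printed value, base 10 assumed) for clock members, output genes and Saa1 (rows). Knockout liver 4 and wild-type liver 1, at left, are low in Per2 (-0.228 and -0.120), Noct (-0.509 and -0.267) and Usp2 (-0.378 and -0.147) and high in Nfil3 (0.198 and 0.0945) and Saa1 (0.760 and 0.353).

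Genes that answer to temperature, glucocorticoids and feeding, the signals that also set the liver clock, were read beside it. Of 12 measured temperature and heat shock genes, 6 were higher and 6 lower in the knockouts, with a median difference of -0.000517, or -0.0425 without knockout liver 4 and 0.0288 without knockout liver 3. The 4 genes of smallest p in the list were the chaperone genes Dnaja1 (-0.137 and -0.0376 in its 2 probes), Hspe1 (-0.0640), Stip1 (0.0499) and Hspd1 (-0.0735 and -0.0634 in its 2 probes). All had p values above 0.05 before adjustment. The median of 15 glucocorticoid genes was 0.0153, with 10 higher and 5 lower, led by Angptl4 (0.124), Sult1e1 (-0.138), Tat (0.201) and Dusp1 (0.178). The median of 20 feeding and fasting genes was -0.00680, with 9 higher and 11 lower, and 0.0439 without knockout liver 4, and Pck1, the gluconeogenic carboxykinase (0.134, limma, adjusted p = 0.884), had the smallest p. G6pc (0.138), Irs2 (0.0578) and Lpin1 (0.325) followed. Limma called 0 genes in these 3 lists, and 1, Pck1, lay below an unadjusted p of 0.05.

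List means by liver did not single out the same pair throughout. The feeding list was lowest in knockout liver 4 (-0.105) and wild-type liver 1 (-0.0949) and highest in wild-type liver 2 (0.110). The glucocorticoid list was lowest in wild-type liver 3 (-0.133) and knockout liver 4 (-0.0990), while wild-type liver 1 stood at 0.0276. The contrast reached an r of 0.8 with 0 of 14 temperature probes, 0 of 16 glucocorticoid probes and 1 of 20 feeding probes, that of the lipogenic gene Thrsp. It reached an r of -0.8 with 1 temperature probe, that of the heat shock gene Hsph1 (-0.847), and with 0 of the other 2 lists. Over all probes the shares at 0.8 and at -0.8 were 2.06% and 2.05%. The chaperone genes Hspa5 (-0.757) and Hsp90aa1 (-0.715), named with Hsph1 and Thrsp after their values were seen, also ran against the contrast. The cold-induced genes Cirbp (0.591) and Rbm3 (0.416) ran with it, and so did the heat shock genes Dnajb1 (0.373) and Hspa1a (0.285). Over the 14 temperature probes 6 ran with the contrast and 8 against it, with a median r of -0.0933. The part of temperature, feeding, glucocorticoids or the hour of sampling in the clock values was not tested.

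Markers of other liver cells moved in part with the clock values. The mean of 9 Kupffer cell and macrophage genes lay between -0.268 and -0.0811 in the wild types, and at -0.132, -0.199 and 0.135 in knockout livers 2 to 4, highest in knockout liver 4 as Arntl was. Of its 11 probes, 10 correlated negatively with the contrast, with a median r of -0.701. Of these, 4 lay at -0.8 or below, where 2.05% of all probes do. Wild-type liver 1, the other liver of low contrast, stood at -0.137 within the wild-type range. The mean of 6 hepatocyte markers lay between -0.0506 and 0.0401 in the wild types and between -0.0629 and 0.0737 in the knockouts. Endothelial and stellate cell means were also highest in knockout liver 4 (0.0485 and 0.0300), and bile duct markers were highest in wild-type liver 2 (0.139). The mean of the lymphocyte and neutrophil markers was highest in knockout liver 4 (0.0667), mainly through S100a8 (0.151) and S100a9 (0.239). In that liver Cd3e read 0.0937, while Cd79a read 0.0031 and Ms4a1 -0.0155. Of the 8 probes of this list, 4 correlated positively and 4 negatively with the contrast. The probes of S100a8 and S100a9 lay at -0.8 or below. Red cell markers were highest in wild-type liver 4 (0.0483) and pancreas markers in knockout liver 4 (0.0626). The part of these cells in the clock values was not tested.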

How the data were processed

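Liver RNA of 7 mice was measured on arrays with 2 channels, Cy3 and Cy5, and per the labels' protocols RNA was amplified and aminoallyl labelled. The authors deposited 1 log ratio per probe and array, read here as log10. Scanner, background correction, normalization, log base and direction are not given in the sources used here, and column medians lay between -0.0008 and 0.0139. Dyes were swapped per the series' design text. The table had 0 unused columns, and 17824 probes had 1 symbol, 50 several and 5700 none in the platform annotation, updated by Entrez number.

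The model, limma 3.58.1 under R 4.3.3, gave knockout minus wild type for each probe (no trend), with Benjamini-Hochberg adjustment over 23574 probes and a threshold of 0.05. The same model tested group means against the pool. Correlations used exact permutations in numpy 2.4.6, Python 3.11.15. Errors are SD over mice or SE of the moderated fit, and intervals are at 95%. The members and lists were chosen with earlier results of these data known. Named were all members, for each list up to 4 genes of smallest p plus some clock genes listed by name, and the 8 highest and lowest r with the contrast. Ciart and Bhlhe40, no members but listed by name among the other loop genes, had no matching probe symbol and are not analysed here. Same-numbered livers did not deviate together (r of -0.137, -0.205 and -0.154), and the main fit used no pairing by number. With so few arrays these values cannot exclude a pairing. On simulated data of 23574 probes, changes of 0.1, 0.2, 0.4 and 0.8 between knockout and wild type were recovered in 28%, 86%, 96% and 100%, with 6 false calls. These shares hold for the simulated probes and do not give the power for a single member. The SE of the difference reached 0.120 for Arntl and 0.0943 for Per2. A call after adjustment over all probes needs a difference of several SE, so changes several times these sizes could be missed in the wide members. Alternatives were other scalings, filters and fits, and each mouse left out.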

Additional observations from a re-analysis of the deposited data

Results flagged for a closer look

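Nr1d1 was unevenly spread among the wild types. Wild-type liver 4 read -0.138, while the other 3 read -0.0086, -0.0088 and -0.0218, so its gap to the nearest liver took 0.898 of the group's range, above the 95% critical value of Dixon's test for 4 samples. Of 11 such groups examined, 1 was beyond it, and chance flags about 1 in 20. In wild-type liver 4 Arntl was also low, at -0.133, and Dbp was the highest of the 7 livers, at 0.0835.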

How the results depend on the processing

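The 10 genotype differences stayed above the adjusted threshold in every alternative run, with adjusted p values from 0.701 upward, and those of Per2, Per3 and Nr1d2 kept their sign in each. With a replicate block, which uses the shared numbers and drops wild-type liver 1 from the comparison, limma called 0 probes, Per1 turned to -0.000200 and Cry1 to -0.00323. Cry1, near 0 throughout, was -0.00466 after median centring and -0.000805 with array weights. With each mouse left out, Per1 ranged from -0.0270 to 0.0895, Cry1 from -0.0158 to 0.0108, Npas2 from -0.0123 to 0.00437, Clock from -0.0235 to 0.00375, Arntl from -0.0964 to 0.145, Nr1d1 from -0.0625 to 0.0991 and Dbp from -0.0664 to 0.00338. Probes called over the table were 0 after quantile or scale normalization and in the ordinary test, 4 among the more variable probes (SD at or above the median), and 0 to 3 with a mouse left out. The clock genes below an unadjusted p of 0.05 were 0 among the more variable probes and with array weights, and 0 to 1 with a mouse left out, and the cause was not tested. The filter on variable probes removed 4 members, Clock, Npas2, Nr1d2 and Cry1. Pairs with an r beyond 0.8 in size numbered 2 by Spearman's rho, 10 on deviations from the genotype means and 4 to 12 with a mouse left out, while 0 passed adjustment in each. Without the 2 farthest mice, Per2 with Arntl turned to 0.517 and Per2 with Nr1d1 to 0.271. The choice of a most variable probe per gene was not run, since each gene had 1. For the output genes, leaving out 1 mouse at a time kept each sign of r with the contrast, while leaving out wild-type liver 1 and knockout liver 4 together turned 4 of the 7, both chosen after seeing the data. With 1 mouse left out, the median difference of the members ranged from -0.00598 to 0.0126, of the other loop genes from -0.0070 to 0.00595, of the outputs from -0.0239 to 0.0546, of the temperature genes from -0.0425 to 0.0288, of the feeding genes from -0.0417 to 0.0439 and of the glucocorticoid genes from 0.00588 to 0.0571. Low signal cannot be judged from ratios.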
